A study of Mus musculus with 2 samples.

Results

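Imprinted genes are genes of which mainly the copy from one parent is active, and 10 of them that are active in embryonic mesenchyme were examined here, namely Plagl1, Peg3, Zim1, Dlk1, Grb10, Sgce, Mest, Ndn, Meg3 and H19. A gene was represented by the array probe sets annotated with its symbol and no other. This gave 36 probe sets for 9 of the 10 genes, out of 34945 such probe sets for 18193 genes in all. H19 had none, because the only probe set that carries its symbol is annotated with 2 symbols, so H19 was not analysed here. The material came from embryos of Col2a1-Venus-Tg mice on a C57Bl/6 background, in which the GFP-derived protein Venus labels chondrocytes, the cells that build cartilage. Cells were sorted on a FACSaria flow cytometer, and the Venus-positive and the Venus-negative fraction, which both come from animals carrying the transgene, gave 1 RNA sample and 1 Affymetrix Mouse Genome 430 2.0 Array each. The embryonic stage, the number of animals, the sort gates and the regulatory sequence that drives Venus were details not given in the sources used here. With 1 array per fraction there is no replicate error and no test, and every difference below describes these 2 arrays. In sorted bulk RNA, fewer cells of a type and less RNA per cell cannot be told apart, and the arrays do not tell the parental copies apart.

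Imprinting is set by DNA methylation laid down differently in egg and sperm, which then switches neighbouring genes of a cluster in opposite ways on the maternal and paternal chromosome. Many imprinted genes act on fetal growth and are abundant in embryonic mesoderm, cartilage included, and several of them decline together after birth. As a general tendency, genes active from the paternal copy promote growth and genes active from the maternal copy restrain it. Plagl1, Peg3, Dlk1, Sgce, Mest and Ndn are active from the paternal copy, and Zim1, Meg3, H19 and, in most tissues outside the brain, Grb10 are active from the maternal copy.

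Promoter sequence is shown for the 3 zinc finger genes, which include the gene with the highest ratio (Zim1) and one whose probe sets gave both small and over 2-fold ratios (Plagl1), and for Ndn, which was nearest to level on the deposited scale. The RefSeq table (build GRCm38.p6) held 12 promoter windows for 8 of the genes, with none for Sgce and H19. Each stretch runs 5' to 3' on the strand of its gene and lies within the 250 bases before an annotated start, without the bases that fall inside the annotated gene. Capitals mark CG, the dinucleotide that carries DNA methylation, which was not measured here. Plagl1 lies at chr10:13090582-13090831 on the plus strand, Peg3 at chr7:6730463-6730669 and Zim1 at chr7:6696541-6696682 on the minus strand, and Ndn at chr7:62348027-62348276 on the plus strand.
Plagl1: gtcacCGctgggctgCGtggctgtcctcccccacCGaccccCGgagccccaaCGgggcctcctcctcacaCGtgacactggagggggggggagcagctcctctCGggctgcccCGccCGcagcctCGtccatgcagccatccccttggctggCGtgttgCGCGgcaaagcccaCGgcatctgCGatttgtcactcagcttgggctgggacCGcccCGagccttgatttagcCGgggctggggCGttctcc
Peg3: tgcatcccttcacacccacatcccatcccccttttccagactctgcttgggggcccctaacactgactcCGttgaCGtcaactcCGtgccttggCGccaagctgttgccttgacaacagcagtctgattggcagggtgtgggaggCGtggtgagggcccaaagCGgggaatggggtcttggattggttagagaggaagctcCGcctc
Zim1: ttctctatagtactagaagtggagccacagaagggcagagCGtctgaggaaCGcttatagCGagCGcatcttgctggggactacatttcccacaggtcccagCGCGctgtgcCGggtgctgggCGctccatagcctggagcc
Ndn: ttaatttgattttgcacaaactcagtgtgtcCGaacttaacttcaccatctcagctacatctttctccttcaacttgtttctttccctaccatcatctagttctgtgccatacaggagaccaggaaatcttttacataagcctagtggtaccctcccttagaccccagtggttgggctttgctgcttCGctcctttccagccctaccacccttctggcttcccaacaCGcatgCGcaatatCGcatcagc

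The Plagl1 stretch of 250 bases held 19 CG and the Ndn stretch of the same length held 5. The shorter Peg3 and Zim1 stretches, of 207 and 142 bases, held 7 and 8. At least 10 CG were present in 6 of the 12 member windows of 250 bases and in 37.8% of all 32851 windows of that length. The windows are not independent, since 2 of the 3 Mest windows overlap almost completely and both are among the 6. Motifs were searched on both strands in the full windows of 250 bases. These windows, also those counted for CG, include any bases inside the annotated gene that the stretches above leave out. The GC box GGGCGG was present in 6 of 12 member windows, 3 of them of Mest, against 32.7% of all windows, and the Plagl1 stretch holds 2 matches, the first starting at base 113. The 2 overlapping Mest windows begin at chr6:30737800 and chr6:30737803, downstream of the first annotated Mest start, whose window ends at chr6:30733505. Both are counted in each group of 6. Zim1 counts in both groups of 6 only through bases inside the annotated gene. Its full window held 14 CG and a GC box, whereas its stretch held 8 CG and 0 GC boxes. The sequence GGGGCCCC, which PLAGL1 protein binds in vitro, was present in 1 of 12 member windows, that of Peg3 (starting at base 50), and in 0.889% of all windows. The TATA box TATAAA was found in 1 of 12, a Meg3 window, against 12.4% of all windows. CCAAT was found in 2 of 12 (Meg3 and Peg3) against 33.8%, and the YY1 core AAGATGGC in 0 of 12 against 1.56%. None of these motifs contains another. These matches are descriptions of letters and not binding sites.

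The sort itself is visible in the array values. Col2a1, whose reporter defined the sort, gave 8443 in Venus-positive against 606 in Venus-negative cells. All 8 chondrocyte marker genes were at least 2-fold higher in Venus-positive cells. Of 59 measured marker genes in 8 lists for other cell types (fibroblast and mesenchyme, skeletal muscle, endothelium, leukocytes, red cells, epithelium, neurons, and smooth muscle with pericytes), 50 were at least 2-fold lower and 0 were higher. The summed signals of these lists were 175 to 11514 on the Venus-positive array and 863 to 23792 on the Venus-negative array, the Venus-negative sum being 2.07 to 13.2 times the Venus-positive one list by list. No signal was 0. A floor of 22.5, the median of all signals, separated weak signals from measured ones, and 24 of the 59 genes were below it in Venus-positive cells, against 0 in Venus-negative cells. Of 5 measured osteoblast markers 3 were at least 2-fold higher and 1 was lower. The part of these cell types in the values of the imprinted genes was not tested. The Venus-positive array was also dimmer, with a median log2 ratio of -0.33 over 11789 measured genes. Log2 ratios are Venus-positive over Venus-negative on the deposited scale, and "relative" ratios have this median subtracted.

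Of the 9 measured imprinted genes 8 were within 2-fold between the fractions, most of them higher in Venus-positive cells and Sgce and Ndn lower, with a median log2 ratio of 0.25 (all measured genes -0.33, the 8 chondrocyte markers 5.50). All 9 genes reached the floor on both arrays. On the deposited scale 7 of the 9 had a higher signal in Venus-positive cells, as had 22.7% of all measured genes, and 2 had a lower one. At least 2-fold higher was 1 of 9, Zim1 (11.1%, with a background of 2.79% of measured genes), and at least 2-fold lower was 0 of 9 (background 11.6%). Relative to the median gene, 8 of 9 lay above it and Sgce below it, and again 1 of 9 was 2-fold higher (background 5.06%) and 0 of 9 lower (background 6.45%). A count of 1 gene is too small to set against these backgrounds. Between genes the log2 ratio ran from -0.50 for Sgce to 1.09 for Zim1.

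Most of these genes give strong signals, so they were also set beside other genes of strong signal. Over 842 genes with at least 1000 on both arrays the median log2 ratio was -0.20 and 26.1% had a higher signal in Venus-positive cells. The 7 imprinted genes in this class (all but Zim1 and Sgce) had a median of 0.25, with 6 of 7 above 0 and all 7 above the median of the class.

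**Figure D1:**
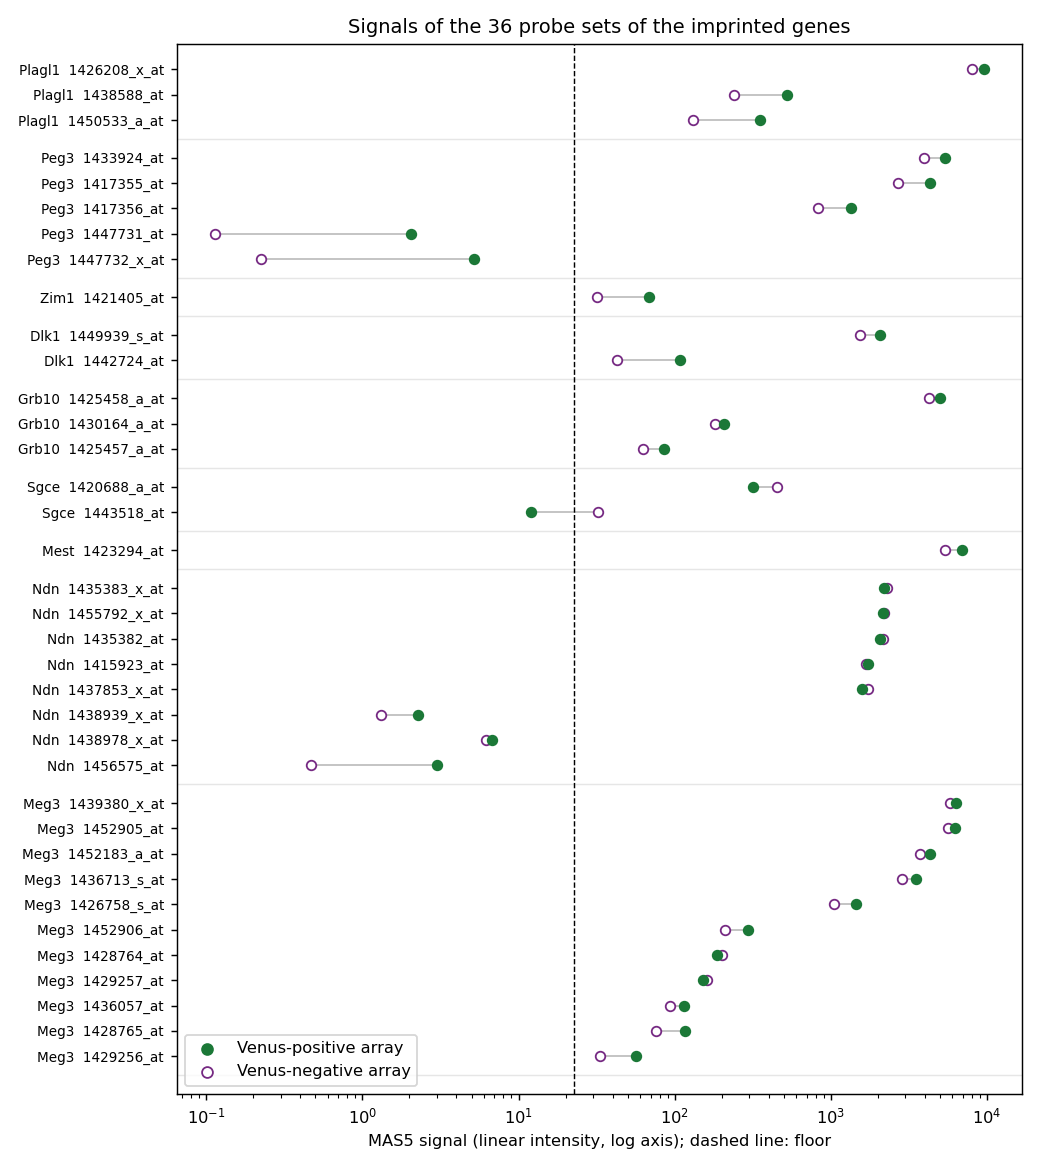
Signal of each of the 36 probe sets (linear MAS5 intensity on a log axis) on the Venus-positive array (filled green) and the Venus-negative array (open purple), grouped by gene, with the floor of 22.5 as a dashed line. The filled point lies to the right for most probe sets above the floor, the 5 measured Ndn probe sets nearly coincide, and both Sgce probe sets have the filled point on the left.

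Among probe sets the picture was similar. Of the 36, 31 were at or above the floor on 1 array or both and 5 were not (2 of Peg3 and 3 of Ndn, all with signals of 6.72 or less). Of the 31, 23 had a higher signal in Venus-positive cells, as had 22.7% of all measured probe sets, and 8 a lower one. Above the median gene lay 29 of the 31, as did 50.4% of all measured probe sets. At least 2-fold higher were 4 of 31 (12.9%, background 2.44% of 21102 measured probe sets), namely 2 of Plagl1, 1 of Dlk1 and the 1 of Zim1, and 0 of 31 were 2-fold lower (background 10.2%). On the relative scale 7 of 31 were 2-fold higher (22.6%, background 4.63%), adding 2 probe sets of Peg3 and 1 of Meg3, and 0 were lower (background 5.32%). Probe sets of 1 gene share the gene and the RNA, so 11 Meg3 probe sets are not 11 observations.

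Of the zinc finger genes, Plagl1 encodes a transcription factor that acts on other imprinted genes. Its probe set with the strongest signal (1426208_x_at) read 9559 in Venus-positive against 8033 in Venus-negative cells, a log2 ratio of 0.25. Probe set 1438588_at read 523 in Venus-positive against 238 in Venus-negative cells. Probe set 1450533_a_at read 349 in Venus-positive against 132 in Venus-negative cells. Those were 2.20-fold and 2.66-fold higher, so that the 3 probe sets shared a direction and differed by 1.16 in log2 ratio, with a standard deviation of 0.61 over the 3. The name ending _x_at marks a probe set that can match other transcripts as well. Without such probe sets the log2 ratio of Plagl1 was 1.14, past 2-fold.

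Peg3 encodes a large zinc finger protein linked to growth and to maternal behaviour in mice. Its strongest probe set (1433924_at) read 5385 in Venus-positive against 3966 in Venus-negative cells. The next (1417355_at) read 4320 in Venus-positive against 2692 in Venus-negative cells. The third (1417356_at) read 1340 in Venus-positive against 830 in Venus-negative cells. All 3 were higher in Venus-positive cells, by 1.36-, 1.60- and 1.61-fold. The remaining pair of Peg3 probe sets was below the floor on both arrays, with 2.05 and 5.17 in Venus-positive cells and 0.114 and 0.223 in Venus-negative cells.

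Zim1 is a zinc finger gene beside Peg3 that is active from the opposite parental copy. It has 1 probe set (1421405_at), which read 68.1 in Venus-positive against 32.0 in Venus-negative cells, 2.13-fold higher on the deposited scale and 2.68-fold relative to the median gene. Of all measured genes 97.6% had a lower ratio. Its Venus-negative signal was close to the floor of 22.5, and without a floor, on a scale of log2(signal + 16), the log2 ratio was 0.81, under 2-fold. With a higher floor, the 75th percentile of signals, Zim1 was no longer measured.

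The membrane and signalling genes went in both directions. Dlk1 encodes a transmembrane protein related to the Notch ligands that marks immature mesenchyme and holds back fat cell formation. Its stronger probe set (1449939_s_at) read 2061 in Venus-positive against 1529 in Venus-negative cells, 1.35-fold higher. The weaker one (1442724_at) read 108 in Venus-positive against 43.0 in Venus-negative cells, 2.51-fold higher. Both shared the direction and differed by 0.89 in log2 ratio.

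Grb10 encodes an adaptor that binds the insulin and IGF1 receptors and restrains growth. It read 5003 in Venus-positive against 4254 in Venus-negative cells on its strongest probe set (1425458_a_at). Probe set 1430164_a_at read 205 in Venus-positive against 182 in Venus-negative cells. Probe set 1425457_a_at read 85.9 in Venus-positive against 63.1 in Venus-negative cells. All 3 were higher, by 1.13- to 1.36-fold.

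Sgce encodes epsilon-sarcoglycan, a membrane glycoprotein whose human counterpart is mutated in myoclonus-dystonia. It was the single member below the median gene, with 318 in Venus-positive against 449 in Venus-negative cells (1420688_a_at), 1.41-fold lower. Its weaker probe set (1443518_at) read 11.9, below the floor, in Venus-positive against 32.1 in Venus-negative cells, which makes it lower by at least 1.43-fold. With the median gene subtracted, the log2 ratio of Sgce was -0.17, and 35.0% of measured genes had a lower one.

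Mest, which encodes a protein of the alpha/beta hydrolase fold that is widely used as a marker of embryonic mesoderm, has 1 probe set (1423294_at). It read 6959 in Venus-positive against 5343 in Venus-negative cells, 1.30-fold higher. Ndn encodes necdin, a MAGE family protein that restrains proliferation. Its 5 measured probe sets read 1580 to 2188 in Venus-positive against 1686 to 2290 in Venus-negative cells. Their log2 ratios ran from -0.13 to 0.04 with a standard deviation of 0.06, and Ndn was the gene nearest to level on the deposited scale. The sign for Ndn turned with the scaling: its log2 ratio was -0.07 as deposited, 0.27 relative to the median gene, 0.14 after quantile normalization and 0.22 when scaled to the hybridisation controls.

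Meg3 is a long noncoding RNA from the maternal copy of the Dlk1 region. Its strongest probe set (1439380_x_at) read 6350 in Venus-positive against 5783 in Venus-negative cells, a log2 ratio of 0.13. The next (1452905_at) read 6276 in Venus-positive against 5605 in Venus-negative cells. Both were higher in Venus-positive cells, as were the following 3. Probe set 1452183_a_at read 4300 in Venus-positive against 3719 in Venus-negative cells. Probe set 1436713_s_at read 3521 in Venus-positive against 2874 in Venus-negative cells, and 1426758_s_at read 1446 in Venus-positive against 1054 in Venus-negative cells. The 6 weaker ones read 56.8 to 296 in Venus-positive against 33.0 to 208 in Venus-negative cells. Of the 11, 9 were higher in Venus-positive cells and 2 lower. The lower ones were 1428764_at, with 186 in Venus-positive against 202 in Venus-negative cells, and 1429257_at, with 152 in Venus-positive against 160 in Venus-negative cells. All 11 lay above the median gene, with log2 ratios from -0.12 to 0.78, a median of 0.29 and a standard deviation of 0.28.

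The probe set that stood for a gene was the one with the strongest signal, and this choice bore on the size of the ratio. In 5 of the 6 imprinted genes with several probe sets above the floor on both arrays, the strongest probe set gave a lower ratio than the weakest (Plagl1, Dlk1, Meg3, Peg3 and Grb10), and Ndn was the exception. Over 4653 such genes in all, the strongest gave the lower ratio in 51.7%.

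**Figure D2:**
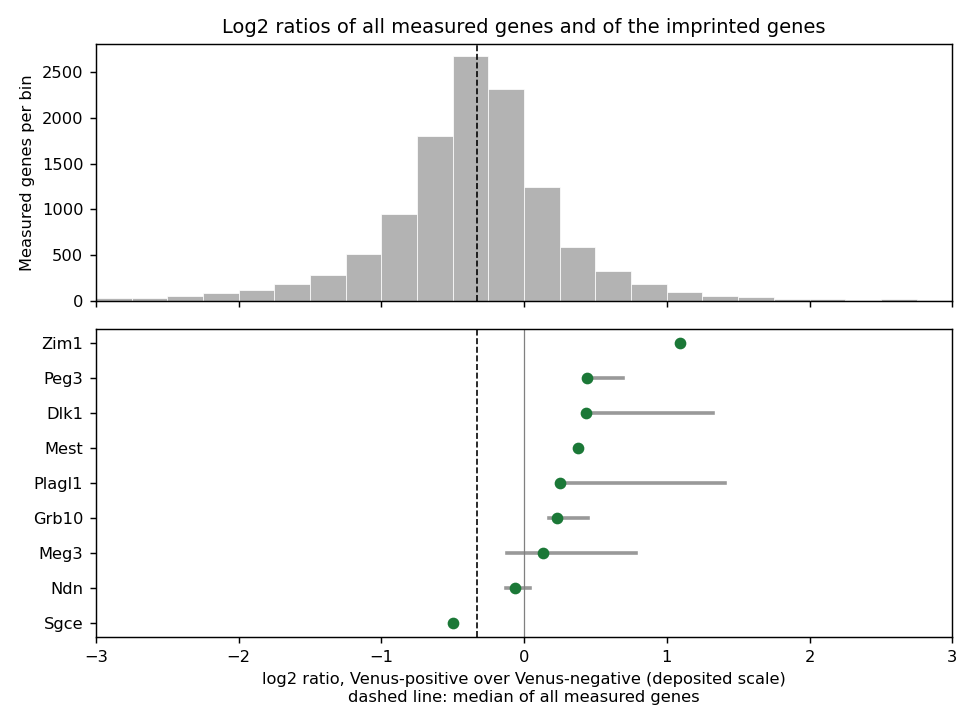
Ratios (log2, Venus-positive divided by Venus-negative) on the deposited scale. The upper panel counts all measured genes in bins of 0.25 (99 genes lie outside the axis), and the lower panel gives each imprinted gene at its strongest probe set (point) with the range over its measured probe sets (bar). Of the 9 points 8 lie to the right of the median gene (dashed, -0.33), and the bars of Plagl1 and Dlk1 extend past 1.

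Imprinted genes lie in clusters, so the measured neighbours of the members in their clusters were examined next. There were 19 of them, with a median log2 ratio of 0.25 (all measured genes -0.33). Of the 19, 11 were above 0, as were 22.7% of all measured genes, and 8 were below. Above the median gene lay 13 of the 19, as did 5894 of all 11789 measured genes. At least 2-fold higher were 2 (Asb4 and Atp10a) and 2-fold lower was 1, Mkrn3 (backgrounds as above, 2.79% and 11.6%). This set of neighbours differs from the planned one. Atp10a was not in the plan for the Ndn cluster. Cdkn1c, planned as a neighbour of H19, was assigned to the Kcnq1 cluster and is not among the 19.

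In the Dlk1-Meg3 cluster all 4 measured genes lay on the same side. Rian, a noncoding RNA downstream of Meg3, read 2271 in Venus-positive against 1904 in Venus-negative cells on its strongest probe set, and its 4 probe sets gave log2 ratios from -0.22 to 0.25. Mirg, which lies farther along and hosts microRNAs, read 284 in Venus-positive against 184 in Venus-negative cells, a log2 ratio of 0.63. In the Peg3 cluster Usp29, a gene for a ubiquitin-specific protease family member, read 40.7 in Venus-positive against 15.9, below the floor, in Venus-negative cells, so it was at least 1.81-fold higher, the same direction as Peg3 and Zim1.

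Of the other clusters with measured neighbours, those of Sgce, Mest, Grb10 and Ndn held genes on both sides of 0. In the H19-Igf2 cluster as counted here, Igf2 alone was measured. Around Sgce, Asb4, which encodes an adaptor of a ubiquitin ligase, read 1484 in Venus-positive against 422 in Venus-negative cells, 3.51-fold higher, and 1.73 was the log2 ratio of its second probe set. Peg10, a retrotransposon-derived gene that shares its promoter region with Sgce, read 33.5 in Venus-positive against 21.6, below the floor, in Venus-negative cells, so it was at least 1.49-fold higher, the opposite direction to Sgce. Casd1, a sialic acid acetyltransferase gene on the other side of Sgce, had 801 in Venus-positive against 1140 in Venus-negative cells, a log2 ratio of -0.51. Pon2, a paraoxonase gene, had -0.89, its relative Pon3 0.46 and Ppp1r9a, which encodes the actin-binding protein neurabin, -0.07, although 1 of the 4 measured Ppp1r9a probe sets gave 1.15.

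Around Mest, the coat protein gene Copg2 had a log2 ratio of -0.36 and the transcription factor gene Klf14 one of 0.83, with 62.7 in Venus-positive against 35.3 in Venus-negative cells. Around Grb10, Ddc, which encodes the aromatic amino acid decarboxylase, had -0.78, with 49.6 in Venus-positive against 85.1 in Venus-negative cells, and the actin nucleator gene Cobl was below the floor in Venus-positive cells and was at least 1.16-fold lower. In the Ndn cluster Magel2, a close relative of Ndn, read 231 in Venus-positive against 149 in Venus-negative cells, a log2 ratio of 0.63. Peg12 was level at 88.9 in Venus-positive against 88.4 in Venus-negative cells, the ubiquitin ligase gene Ube3a had -0.64 and Mkrn3, a makorin family gene, read 27.4 in Venus-positive against 58.9 in Venus-negative cells, 2.15-fold lower. Atp10a, a phospholipid flippase gene at the edge of this cluster, read 125 in Venus-positive against 40.6 in Venus-negative cells, 3.07-fold higher.

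**Figure D3:**
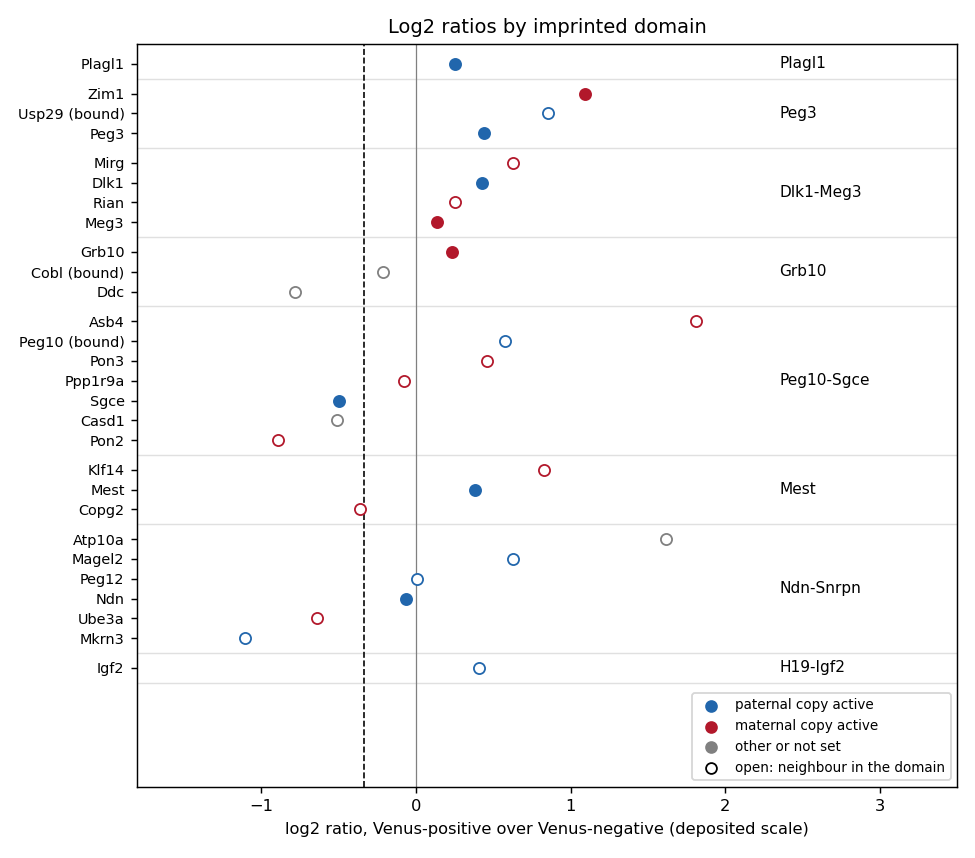
Log2 ratio of each measured gene, Venus-positive over Venus-negative on the deposited scale, by imprinted cluster, with the members filled, their neighbours open and the colour giving the parental copy known to be active in at least some mouse tissues. The genes of the Dlk1-Meg3 and Peg3 clusters all lie to the right of 0, whereas those of the Peg10-Sgce and Ndn-Snrpn clusters span both sides of 0 and of the median gene (dashed, -0.33).

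By parental copy, the 6 paternally active members had a median log2 ratio of 0.32, with 4 above 0. The 3 measured maternally active members had one of 0.23, with all 3 above 0. Of all measured genes 22.7% were above 0. The ranges, -0.50 to 0.44 and 0.13 to 1.09, overlapped.

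For a wider view, 66 further imprinted genes were listed, of which 59 had a probe set of their own and 47 were measured. Of these 3 were at least 2-fold higher (Phlda2, Asb4 and Atp10a) and 4 were 2-fold lower (Dcn, Nap1l5, Nnat and Mkrn3), against the backgrounds of 2.79% and 11.6%. Relative to the median gene 6 were higher and 3 lower (backgrounds 5.06% and 6.45%). Their median log2 ratio was -0.04, and 32 of 47 lay above the median gene. Phlda2, a growth restrainer of the placenta, had the highest ratio, with 749 in Venus-positive against 76.1 in Venus-negative cells, 9.84-fold higher. Dcn (decorin), a matrix proteoglycan of connective tissue that is imprinted in the mouse placenta and also stands in the fibroblast marker list, had the lowest, with 156 in Venus-positive against 2483 in Venus-negative cells, 15.9-fold lower. Nnat (neuronatin), a small membrane protein, read 216 in Venus-positive against 591 in Venus-negative cells, 2.73-fold lower. Nap1l5, a histone chaperone family gene, read 12.8, below the floor, in Venus-positive against 70.7 in Venus-negative cells and so was lower by at least 3.14-fold.

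A subset of 7 of these genes was listed here, with most of the members, as a network of imprinted genes described to move together. This list holds Phlda2, which had the highest ratio of the other imprinted genes, and leaves out Dcn, which had the lowest. The values of the list depend on that choice. Of the 7, 1 was 2-fold higher (Phlda2) and 1 was 2-fold lower (Nnat), where 2.79% and 11.6% of all measured genes were. The median log2 ratio of the 7 was 0.41. Relative to the median gene 2 were higher and 1 lower, where 5.06% and 6.45% of all measured genes were. Igf2, the fetal growth factor gene beside H19, read 8903 in Venus-positive against 6712 in Venus-negative cells, 1.33-fold higher, and 0.68 was the log2 ratio of its second probe set. Igf2r, whose product clears IGF2, read 2383 in Venus-positive against 1316 in Venus-negative cells, 1.81-fold higher, and 2.28-fold relative to the median gene. Cdkn1c, a cell cycle inhibitor gene required for cartilage maturation in mice, read 8060 in Venus-positive against 5791 in Venus-negative cells, 1.39-fold higher. The amino acid transporter gene Slc38a4 had probe sets on both sides of 0 (log2 ratios of -0.41 and 0.45), and Gnas, the stimulatory G protein gene, read 6261 in Venus-positive against 6280 in Venus-negative cells on its strongest.

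The log2 ratios of Plagl1, Dlk1 and Meg3 were highest under another choice of probe set, those of Peg3, Mest, Grb10, Ndn and Sgce after centring on the median gene and that of Zim1 after quantile normalization. Under 9 other settings and the reported one, Dlk1, Meg3, Peg3, Mest, Grb10 and Plagl1 had a log2 ratio above 0 in all 10, Zim1 in all 9 in which it was measured and Ndn in 3 of 10, and Sgce was below 0 in all 10.

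**Figure D4:**
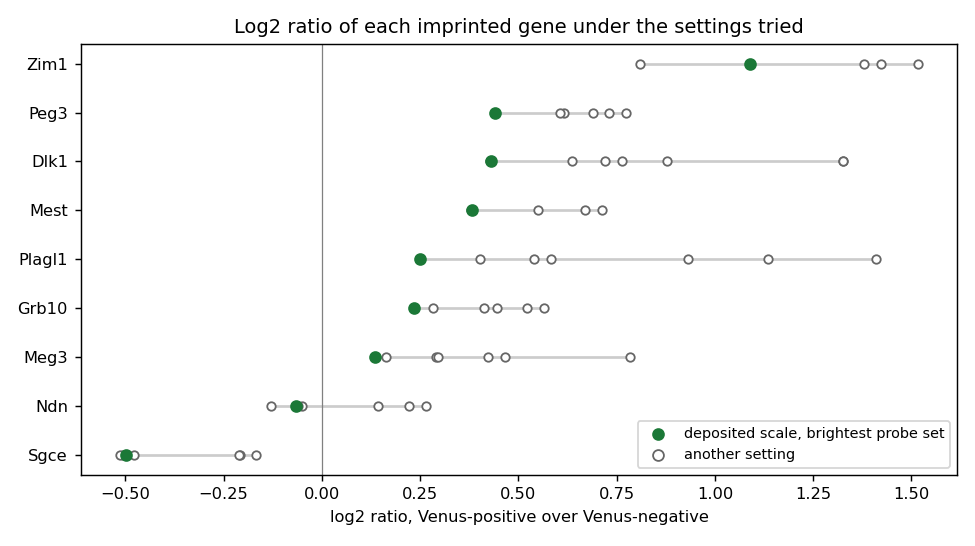
Log2 ratio of each imprinted gene, Venus-positive over Venus-negative, at the reported setting (filled) and under each of the other settings (open). Plagl1 ranges from 0.25 to 1.41, Dlk1 from 0.43 to 1.33 and Meg3 from 0.13 to 0.78, and of the 9 genes Ndn has points on both sides of 0.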

How the data were processed

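Total RNA of Venus-positive and Venus-negative cells was hybridised to 1 one-colour array each, from 100 ng of RNA per the labels' protocols. Groups follow the cell type in the labels. The deposited values are linear intensity per probe set, made by the authors with MAS5 per the submitters' processing notes. Its version, scaling target and detection calls were details not given in the sources used here. Precision is limited by the number of arrays.

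Of 45037 probe sets other than controls, 34945 had 1 gene symbol in the platform annotation, 932 had several and 9160 none, and only the first kind was used. Signals under the floor (22.5, the median of all non-control signals) were raised to it before log2. Probe sets at or above the floor on either array counted as measured, and of those of a gene the strongest by mean log2 signal represented it. Folds against a signal under the floor are lower bounds. Sizes of 2-fold stand in for calls, and no test was made. The text names all members, their neighbours in imprinted clusters, Igf2r, and any other listed imprinted gene past 2-fold. Cdkn1c is named because it was planned as a neighbour of H19. Slc38a4, Gnas and the class of strong signals (at least 1000 on both arrays) were added after values were seen. Members and lists were chosen with earlier results of these data known. There were 8 planned settings and 1 added. The steps were tested on simulated data, with changes larger than those of the members and in genes well above the floor. That test does not cover changes of the size reported here or signals near the floor. Python 3.11.15, numpy 2.4.6, pandas 2.3.3 and matplotlib 3.10.9 were used.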

Additional observations from a re-analysis of the deposited data

How the results depend on the processing

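Over the 9 measured genes, 80 single values were recomputed under 8 planned settings and 1 added after seeing the data (the measured probe set with the lowest signal standing for a gene). Of these 72 stayed within 0.34, the pooled spread (SD) of ratios over probe sets of 1 gene, and 8 did not. This tally cannot show stability, since many of the 72 could not pass 0.34. Centring and the hybridisation controls each shift all genes alike, removing -0.33 and -0.29. The other floors left every measured member unchanged, and Mest and Zim1 have 1 probe set each. Plagl1 and Dlk1 moved by more than 0.34 under every other choice of probe set. No member past 2-fold changed sign. The count of members at least 2-fold higher, 1 as reported, was 0 under a floor set at the 75th percentile (8 members measured) and 0 without a floor, and 3 without probe sets named _x_at or _s_at and 3 with the weakest probe set. The median log2 ratio of the members, 0.25 as reported, was 0.69 with the weakest probe set, 0.58 after centring, 0.54 when scaled to the hybridisation controls and 0.41 after quantile normalization. That of the other imprinted genes, -0.04 as reported, was above 0 under the same 4 settings, at 0.01, 0.29, 0.25 and 0.26. No member was 2-fold lower under any of the 9 settings. Among the other imprinted genes, the count at least 2-fold higher, 3 as reported, was 6 after centring, 7 after quantile normalization, 8 under a floor at the 25th percentile, 6 when scaled to the hybridisation controls and 5 with the weakest probe set. The count at least 2-fold lower, 4 as reported, was 7 under the 25th-percentile floor and 2 under the 75th. It was 3 after centring, after quantile normalization, when scaled to the hybridisation controls and without a floor. Without probe sets named _x_at or _s_at it was 5, and with the weakest probe set 6. The floor sets how many genes are measured (56 of the other imprinted genes with the low floor and 30 with the high one, against 47). Centring, quantile normalization and the hybridisation controls put the median log2 ratio of all genes at 0.00, -0.02 and -0.06, where the deposited scale has -0.33. With the mean over the probe sets of a gene, 1 member was 2-fold higher and 0 lower, with a median of 0.38, and 3 other imprinted genes were higher and 6 lower. Signals near the floor, such as those of Zim1, depend on where it is set. No paired analysis was possible because each fraction has 1 array.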
